A study of Mus musculus with 6 samples.

Results

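Canertinib was mixed into the fast-food diet of male mice for 2 months, and the RNA of their livers was set against that of mice given the same diet without the drug. The comparison takes 2 of the 6 arrays of the series, 1 array per group, and covers 12990 of the 18194 genes with a probe set of their own, namely those above a floor on at least 1 of the 2 arrays. The mice were C57BL6/J, an inbred laboratory strain, and were 6 to 8 weeks old at the start. The canertinib group ate the drug in its food for the whole period, at a dose the submitters estimated at 80 mg/kg per day. Both groups received the fast-food diet, in which fat made up 21% and sucrose 34% of the weight and cholesterol 0.2%, and drank water with glucose at 18.9 g/L and fructose at 23.1 g/L. The remaining group of the 2-month study ate chow, with no sugar solution named in the labels, and its array is given as context. Each array carried RNA pooled from 3 to 4 livers, so the spread between mice is hidden within each value. With 1 array per group there was no replicate and no test was made, so all differences are sizes without an error.

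Canertinib binds covalently to receptor tyrosine kinases of the ERBB family and blocks them, EGFR (the receptor for epidermal growth factor) included. Hepatocytes carry much EGFR, and its ligands signal there through the RAS and ERK cascade toward growth and metabolism. The liver also answers interleukin-6 and interleukin-1 with the acute phase response, in which STAT3 and C/EBP factors switch hepatocytes to secreting defence proteins such as serum amyloid A. Growth hormone, released in pulses in male rodents, sets the sex-biased genes of the liver through STAT5, and PPARalpha sets the genes of fatty acid oxidation.

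Signals are MAS5 values on a linear scale, each array scaled to the same trimmed mean of 500. A gene is represented by the probe set with the highest mean signal, and signals below a floor of 221.4, the median of all values, were raised to it before log2 differences were taken as canertinib minus diet. A gene at the floor on 1 array has only a bound, written as at least N-fold. The hepatocyte markers were bright on both arrays. Albumin (Alb) had a signal of 92449.7 with canertinib, against 80762 on the diet alone, and Hnf4a, a transcription factor that defines hepatocytes, had 17235 with canertinib and 10863 on the diet alone. Of the arrays' genes, 66.6% were above the floor with canertinib, 65.7% on the diet alone and 66.6% on chow. The 3' minus 5' log2 signal of beta-actin, which grows as RNA breaks down, was 1.19 with canertinib, 0.85 on the diet alone and 0.94 on chow, and that of Gapdh was -0.20, -0.30 and -0.18 on the same arrays. The 9 spike-in probe sets read 0.35 higher in log2 signal with canertinib than on the diet alone. The part of these differences in the results was not tested.

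Of the 12990 genes, 497 (3.83%) were at least 2-fold higher with canertinib and 456 (3.51%) at least 2-fold lower, together 7.34%. These shares are the background for every count of list members below. The lists and their members were chosen with earlier results of these data known, so a share above this background is a description only. Among the 11072 genes above the floor on both arrays, the share past 2-fold was larger for bright genes. The 11072 genes held 368 of the 497 higher genes and 341 of the 456 lower ones. The others were bounds, at the floor on 1 array. Over all 12990 genes the median log2 difference was -0.00, with quartiles at -0.31 and 0.31. At 8-fold or more, 20 genes were higher and 16 lower, and at 16-fold or more 8 were higher and 6 lower. The 5-month and 2-month chow arrays, which differ in study and in the age of the mice but not in diet or drug, served as a background for single arrays. Between them 2.83% of genes were at least 2-fold different, 1.39% higher and 1.44% lower at 5 months, 1 gene reached 8-fold and 0 reached 16-fold. For genes above the floor on both arrays, the separation from this background grew with brightness. Among genes above the floor on both arrays with a mean signal above 8000, 16% of 425 were at least 2-fold different with canertinib, 47 higher and 21 lower, against 0.228% of 438 between the chow arrays. At mean signals under 500 the shares were 5.17% and 2.91%.

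**Figure D1:**
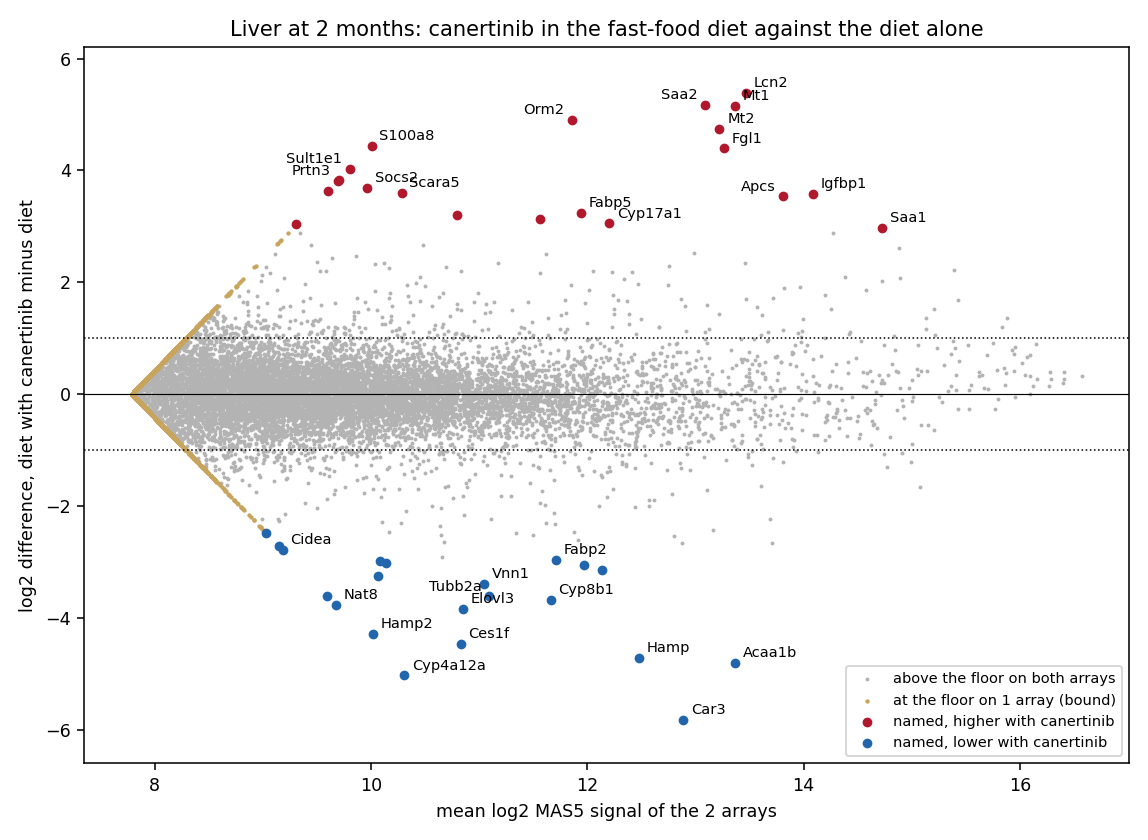
Each point is 1 of the 12990 genes, placed by its mean log2 MAS5 signal on the 2 arrays after flooring (x axis) and its log2 difference, diet with canertinib minus diet alone (y axis). Dotted lines mark 2-fold, tan points are bounds with 1 array at the floor, and the coloured points are the 42 genes farthest from 0 by the rule for naming, from Lcn2 at 5.39 to Car3 at -5.82.

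The drug's own target was itself higher at the transcript level. Egfr had a signal of 6350.4 with canertinib, against 2626 on the diet alone and 7035 on chow, a log2 difference of 1.27. The canertinib value thus lay near chow and above the diet alone. The log2 differences of its probe sets above the floor ran between -0.60 and 2.30. Of the 15 measured ERBB receptors, ligands and adaptors, Egfr was the 1 gene at least 2-fold higher and 0 were at least 2-fold lower, with a median of 0.35. Erbb3, the kinase-poor partner receptor, had 3298 with canertinib and 2584 on the diet alone. Errfi1, which encodes a feedback inhibitor that binds the EGFR kinase, had 34432 with canertinib and 26121 on the diet alone. The ligand genes Tgfa, Btc and Hbegf differed by -0.07, -0.24 and -0.21 in log2.

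Of 28 measured feedback and immediate early genes downstream of ERK, 3 passed 2-fold on the high side, which is 10.7% against a background of 3.83%, and 1 on the low side, 3.57% against 3.51%, with a median of -0.03. The gene on the low side was Ccnd1, which encodes cyclin D1, the driver of entry into the cell cycle. Ccnd1 had a signal of 1066 with canertinib, against 3364 on the diet alone and 2092 on chow, 3.16-fold lower with canertinib. The ERK phosphatase gene Dusp6 and the inhibitor gene Spry4 differed by -0.35 and -0.45 in log2, both less than 2-fold. On the high side were Junb at 1425 with canertinib and 463 on the diet alone, Btg2, an antiproliferative gene, at 3093 with canertinib and 1402 on the diet alone, and the early response gene Ier3, at least 3.42-fold higher. Among 21 measured cell cycle genes, Ccnd1 was the 1 past 2-fold, and 14 of the 35 on the array were at the floor on both arrays, Mki67, Cdk1 and Top2a among them.

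Of 21 measured p53 targets and growth arrest genes 5 passed 2-fold on the high side and 0 on the low side, a share of 23.8% against 3.83% of all genes. The median was 0.34, and 5 of the 21 were lower in some amount. Of the p53 targets, Ccng1 differed by -0.75 on its brightest probe set and by -1.11 and -0.10 on its others. Bbc3 differed by 0.24. The cell cycle inhibitor gene Cdkn1a (p21) had 3038 with canertinib, against 866 on the diet alone and 911 on chow. Ddit4, an inhibitor of mTORC1 signalling, had 2368 with canertinib and 469 on the diet alone, 5.04-fold higher. Gadd45g, a stress sensor of growth arrest, had 1431 with canertinib and was below the floor on the diet alone, at least 6.46-fold higher. The canertinib array was the highest of the 3 arrays for Cdkn1a, Ddit4 and Gadd45g.

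The acute phase lists had the highest medians of the 58 lists. Promoters of 4 of their members are shown because they carry the letters TTGCNNAA, a core of C/EBP binding sites, searched on both strands. The windows run 250 bases before to 50 bases after the RefSeq start on build GRCm38.p6, in the direction of the gene, with the match in capitals. They are chr7:46742931-46743230 (minus strand) for Saa1, chr7:46751583-46751882 (plus) for Saa2, chr4:63362199-63362498 (plus) for Orm2 and chr2:32387690-32387989 (minus) for Lcn2.
Saa1: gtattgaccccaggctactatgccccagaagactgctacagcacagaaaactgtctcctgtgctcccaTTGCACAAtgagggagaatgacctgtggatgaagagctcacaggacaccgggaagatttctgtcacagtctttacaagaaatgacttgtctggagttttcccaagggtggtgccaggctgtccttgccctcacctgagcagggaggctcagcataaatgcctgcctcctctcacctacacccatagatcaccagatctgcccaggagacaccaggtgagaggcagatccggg
Saa2: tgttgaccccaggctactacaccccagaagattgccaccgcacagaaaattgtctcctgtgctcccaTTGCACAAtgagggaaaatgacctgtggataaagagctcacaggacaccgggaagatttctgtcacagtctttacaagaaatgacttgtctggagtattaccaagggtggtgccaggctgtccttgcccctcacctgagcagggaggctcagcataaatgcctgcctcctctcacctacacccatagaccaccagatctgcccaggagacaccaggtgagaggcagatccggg
Orm2: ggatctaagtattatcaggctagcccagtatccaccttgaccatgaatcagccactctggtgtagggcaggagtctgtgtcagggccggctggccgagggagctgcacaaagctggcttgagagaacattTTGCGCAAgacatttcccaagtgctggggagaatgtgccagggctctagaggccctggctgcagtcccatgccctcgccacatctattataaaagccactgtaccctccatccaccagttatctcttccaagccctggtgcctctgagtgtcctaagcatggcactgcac
Lcn2: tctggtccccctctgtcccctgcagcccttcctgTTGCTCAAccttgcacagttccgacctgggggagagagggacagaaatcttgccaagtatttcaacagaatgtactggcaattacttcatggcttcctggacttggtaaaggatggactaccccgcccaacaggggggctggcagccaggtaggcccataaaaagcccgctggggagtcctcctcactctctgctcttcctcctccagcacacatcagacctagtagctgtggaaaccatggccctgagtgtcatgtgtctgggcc
The match begins 182 bases before the start in Saa1, 183 in Saa2, 120 in Orm2 and 216 in Lcn2. The windows of Saa1 and Saa2, neighbouring genes that arose by duplication, were identical at 287 of 299 aligned positions, or 96.0%. TTGCNNAA occurred in 10.8% of 32851 RefSeq promoter windows and in 9.1% of windows of measured genes. It was found in 13.2% of windows of the genes at least 2-fold higher and in 8.40% of those at least 2-fold lower. It was in 14 of 26 windows (53.8%) of the acute phase lists, in 56.2% of 16 windows of list members at least 2-fold higher and in 5 of 10 windows of the others. For comparison, 22.2% of 36 windows of the coagulation and complement lists held it. A match describes the letters and does not show that a factor binds there.

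All 12 measured genes of the serum amyloid, orosomucoid, pentraxin and lipocalin list were higher with canertinib in some amount, and 8 of them (66.7%) by at least 2-fold, with a median log2 difference of 1.87. Lcn2, which encodes the iron-siderophore binding protein lipocalin-2, had a signal of 73181 with canertinib, against 1743 on the diet alone and 130.0 on chow, 42.0-fold higher with the drug than without. Saa2 had 52413 with canertinib, against 1451 on the diet alone and 283 on chow, and Saa1 had 76182 with canertinib, against 9674 on the diet alone and 1278 on chow. Both serum amyloid A genes were higher on the diet than on chow and higher again with the drug, and their probe sets may share RNA because the genes are near copies. The chow arrays differed too: Saa1 read 13262 on the 5-month and 1278 on the 2-month chow array. Without the genes that differed at least 2-fold between the chow arrays, a check added after seeing the data, the median of the list was 1.01.

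Orm2, which encodes an alpha-1-acid glycoprotein that binds drugs in plasma, had 20349 with canertinib, against 682 on the diet alone and 170.2 on chow, while its neighbour Orm1 differed less, at 44198 with canertinib and 10383 on the diet alone. Apcs, which encodes serum amyloid P and is a main acute phase protein of the mouse, had 48950.2 with canertinib, against 4222 on the diet alone and 5208 on chow. Haptoglobin (Hp), which binds free haemoglobin, had 98597 with canertinib and 53183 on the diet alone, a log2 difference of 0.89 and so under 2-fold. The low end of the list was 0.39.

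Among 19 further acute phase plasma proteins, 12 were at least 2-fold higher and 0 lower, with a median of 1.21. Fgl1, a fibrinogen-like hepatokine that binds the immune checkpoint receptor LAG-3, had 44984 with canertinib, against 2139 on the diet alone and 3806 on chow, 21.0-fold higher with canertinib. Serpina3n, a protease inhibitor, was 7.36-fold higher, at 53704 with canertinib and 7298 on the diet alone. The inter-alpha-inhibitor heavy chain Itih3 was 6.12-fold and Lrg1, a leucine-rich plasma glycoprotein, 4.20-fold higher. Ahsg (fetuin-A), a plasma protein that declines in the human acute phase response, had 81849 with canertinib and 47485 on the diet alone, a log2 difference of 0.79.

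Some genes of interleukin signalling were higher at the receptor, the factor and the feedback step. Of 21 measured, 8 were at least 2-fold higher and 0 lower. Il1r1, the interleukin-1 receptor, was below the floor on the diet alone and had 2730.3 with canertinib, at least 12.3-fold higher. Stat3 had 5905 with canertinib, against 2169 on the diet alone and 3037 on chow on its brightest probe set, while a dim one gave -0.91 in log2. Socs3, the feedback inhibitor that STAT3 induces, had 1825 with canertinib and was at least 8.24-fold higher. Nfkbiz, an IkB family cofactor of interleukin-1 responses, was 4.57-fold higher. The receptor genes Il6ra and Il6st differed by -0.06 and 0.16 in log2, and the cytokine genes Il6 and Tnf were at the floor on both arrays. With genes at the floor on 1 array left out, the median of the list was 0.30 in place of 0.67. Socs2, a feedback inhibitor of growth hormone signalling, had 3577 with canertinib, against 278 on the diet alone and 821 on chow. The log2 differences of its probe sets ran between 0.17 and 3.68.

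Coagulation and complement genes leaned the same way by smaller amounts. Of 23 coagulation genes 5 passed 2-fold on the high side (21.7%, against 3.83% of all genes) and 0 on the low side, with a median of 0.66. Among genes with a mean signal above 8000, 47 of 425 passed 2-fold on the high side. Kininogen (Kng1) was 3.65-fold, factor X (F10) 3.27-fold, factor VII (F7) 2.86-fold and the fibrinogen beta chain (Fgb) 2.57-fold higher. Fgb had 96555 with canertinib, against 37634 on the diet alone and 41638 on chow, while Fga and Fgg, the other chains, differed by 0.72 and 0.84 in log2. Of 23 complement genes 3 passed 2-fold on the high side and 0 on the low side, namely C4bp, Hc (complement C5) and C8b, at 1.09, 1.06 and 1.06. C8b had 4597 with canertinib, against 2210.3 on the diet alone and 6590.2 on chow, so the canertinib value lay between the diet and chow values.

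Some neutrophil and macrophage markers were higher beside the acute phase genes. Of 11 measured neutrophil markers 5 were at least 2-fold higher and 0 lower, and their summed signal was 90701 with canertinib, against 6694 on the diet alone and 4577 on chow. With canertinib most of that sum is Lcn2, which hepatocytes also make. The calprotectin genes S100a8 and S100a9 were below the floor on the diet alone and had 4776 and 3146 with canertinib, at least 21.6-fold and 14.2-fold higher. The granule genes Ngp and Ltf had 2717 and 2084 with canertinib, against 689 and 631 on the diet alone. Elane, also in the list, was just under 2-fold higher, at 0.997 in log2. Outside the list, Prtn3, the granule protease proteinase 3, was at least 14.1-fold higher. The granule gene Camp was at the floor on both arrays, and Csf3r, the receptor for granulocyte colony-stimulating factor, differed by 0.05. In bulk liver, more cells of a type and more RNA per cell cannot be told apart. The part of these cells in the acute phase values was not tested.

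**Figure D2:**
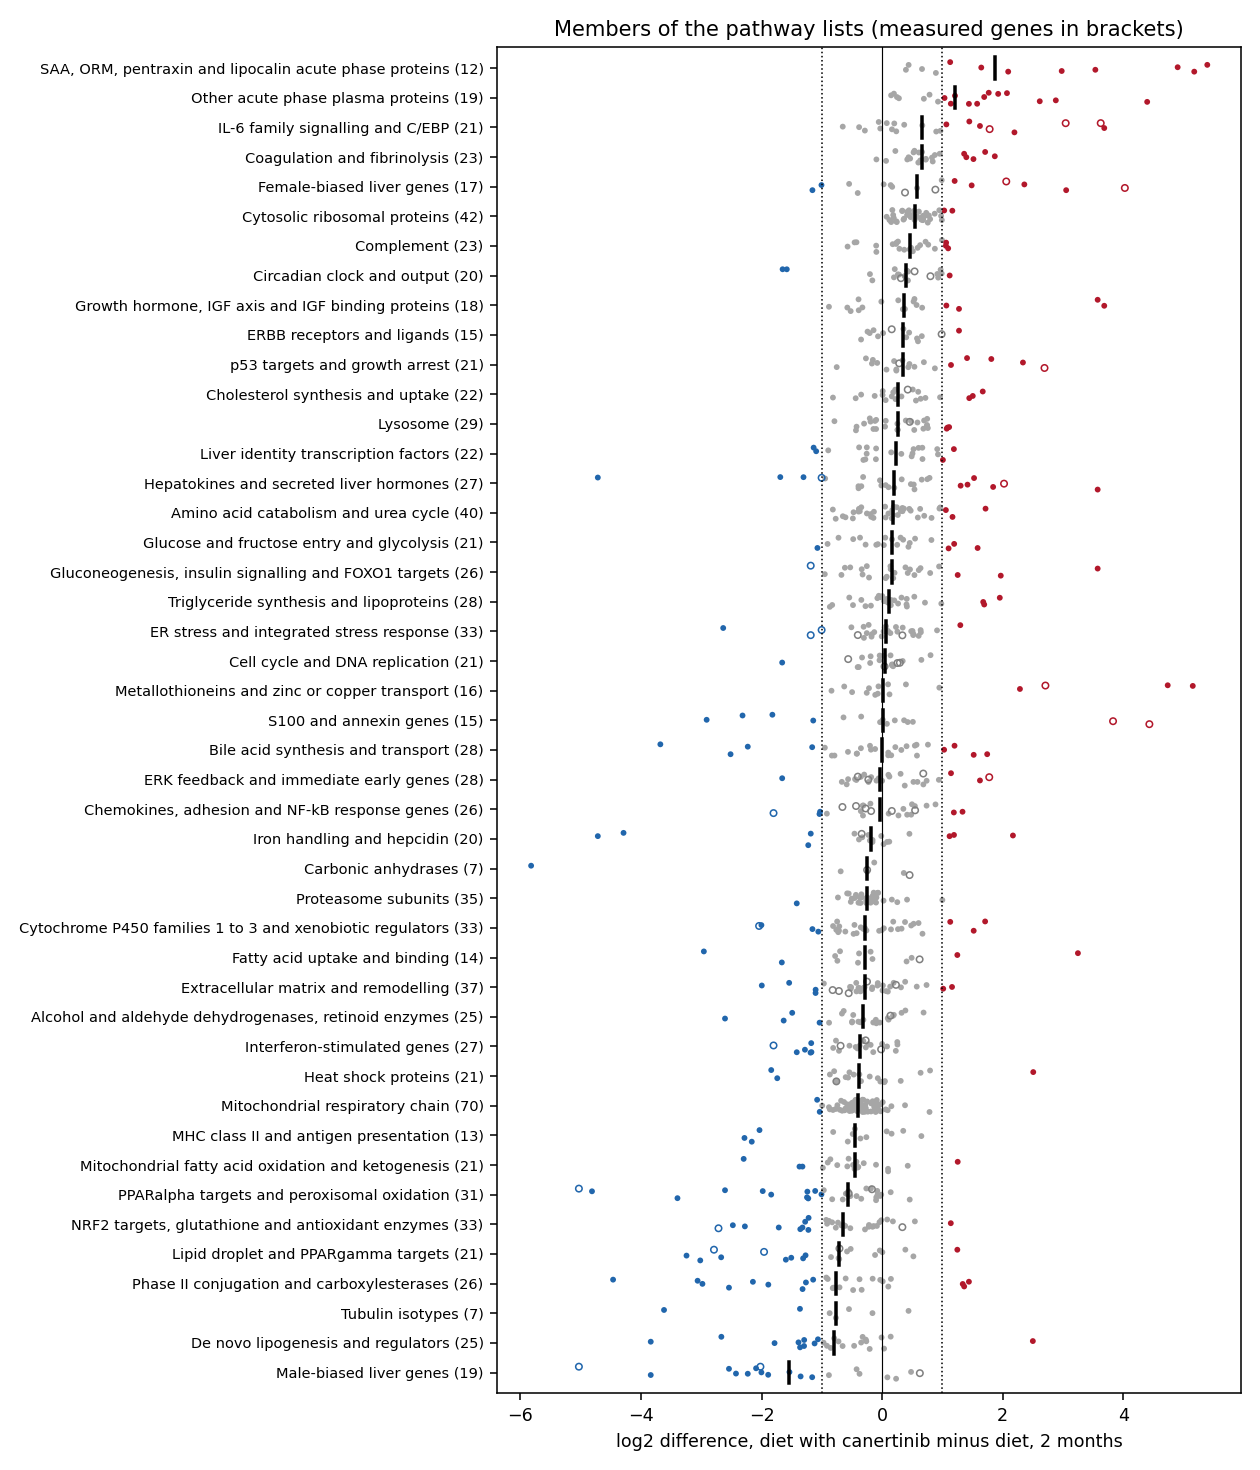
Each point is a measured member of 1 of 45 pathway lists, placed by its log2 difference, diet with canertinib minus diet alone. Red and blue points are at least 2-fold higher or lower, open points are bounds, and bars are list medians, which run from 1.87 for the serum amyloid list at the top to -1.54 for male-biased liver genes at the bottom.

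Both metallothionein genes, which encode small zinc-buffering and copper-buffering proteins, were among the 15 genes with the largest differences upward. Their promoter windows are shown for the letters TGCACNC and TGCGCNC, cores of the metal response element that the zinc sensor MTF1 reads, on either strand and in capitals. They lie at chr8:94178839-94179138 for Mt1 and chr8:94172368-94172667 for Mt2, both on the plus strand of GRCm38.p6.
Mt1: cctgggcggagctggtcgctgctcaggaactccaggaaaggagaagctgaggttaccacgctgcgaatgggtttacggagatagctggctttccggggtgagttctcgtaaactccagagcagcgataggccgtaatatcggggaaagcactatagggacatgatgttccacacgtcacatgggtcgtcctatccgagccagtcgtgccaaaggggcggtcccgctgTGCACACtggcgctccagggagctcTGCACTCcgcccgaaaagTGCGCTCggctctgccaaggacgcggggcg
Mt2: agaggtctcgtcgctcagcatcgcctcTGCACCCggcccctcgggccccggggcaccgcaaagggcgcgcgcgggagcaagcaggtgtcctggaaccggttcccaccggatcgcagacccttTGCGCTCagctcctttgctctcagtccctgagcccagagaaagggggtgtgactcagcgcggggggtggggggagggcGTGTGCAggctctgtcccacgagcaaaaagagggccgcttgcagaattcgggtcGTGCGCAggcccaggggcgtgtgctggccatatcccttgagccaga
The Mt1 window holds 3 matches and the Mt2 window 4, and the Mt2 window also holds 1 match to TTGCNNAA outside the capitals. Counted from the RefSeq start, the Mt1 matches begin 23 bases before it and 2 and 20 bases after it. Those of Mt2 begin 223, 128 and 50 bases before its RefSeq start and 4 bases after it. Whether these are the starts used in liver was not tested. At least 1 match occurred in 25.7% of all 32851 windows and at least 4 in 0.517%. Among windows of measured genes these shares were 33.9% and 0.766%. Windows of genes at least 2-fold higher held at least 1 in 32.0%, and those at least 2-fold lower in 31.7%. Both lay just under the share of measured genes. Mt1 had a signal of 62837 with canertinib, against 1769 on the diet alone and 2391 on chow, 35.5-fold higher with canertinib. Mt2 had 49326 with canertinib, against 1852 on the diet alone and 1122 on chow, 26.6-fold higher. The other Mt1 probe set gave 3.26 in log2 where the brightest gave 5.15.

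Some zinc transport genes were higher too. Slc39a14 (ZIP14), the importer that brings zinc into hepatocytes in inflammation, had 15287 with canertinib, against 3138 on the diet alone and 3541 on chow, 4.87-fold higher. Slc30a1 (ZNT1), the exporter at the cell surface, was at least 6.53-fold higher. The other probe sets gave less, down to 0.38 in log2 for Slc39a14 and 0.65 for Slc30a1. These and the metallothioneins were the 4 of 16 measured zinc and copper genes past 2-fold, 0 were lower, and the median was 0.02. The metal sensor gene Mtf1 differed by -0.50 and the copper exporter gene Atp7b by -0.84, both under 2-fold.

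Hepcidin, the liver hormone that lowers iron release from gut and macrophages and that interleukin-6 induces through STAT3, was lower while the acute phase genes were higher. The Hamp window at chr7:30943980-30944279 (minus strand, GRCm38.p6) is shown beside that of Socs3 at chr11:117969317-117969616 (minus strand), since both hold the STAT core TTCNNNGAA, in capitals.
Hamp: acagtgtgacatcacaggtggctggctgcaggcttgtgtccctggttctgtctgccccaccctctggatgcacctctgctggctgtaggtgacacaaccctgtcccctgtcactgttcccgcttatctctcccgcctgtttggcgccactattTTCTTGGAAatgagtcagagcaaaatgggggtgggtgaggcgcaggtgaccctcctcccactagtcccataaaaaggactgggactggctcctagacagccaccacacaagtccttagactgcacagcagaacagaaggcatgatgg
Socs3: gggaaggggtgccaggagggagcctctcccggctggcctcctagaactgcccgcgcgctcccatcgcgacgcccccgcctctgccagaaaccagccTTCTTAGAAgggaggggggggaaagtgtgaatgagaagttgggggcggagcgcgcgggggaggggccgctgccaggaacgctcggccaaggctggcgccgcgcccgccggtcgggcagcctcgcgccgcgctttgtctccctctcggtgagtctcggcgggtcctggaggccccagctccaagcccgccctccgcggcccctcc
The match begins 97 bases before the start in Hamp and 154 in Socs3, and 8.30% of all windows held such letters. Among windows of measured genes the share was 6.85%. It was 7.04% for genes at least 2-fold higher and 7.56% for those at least 2-fold lower. Hamp had 1115 with canertinib, against 29289.8 on the diet alone and 42511 on chow, 26.3-fold lower with canertinib. Hamp2, a near copy whose probes can take up the same RNA, had 235 with canertinib and 4589.9 on the diet alone. Both were low with canertinib and high on diet and on chow, opposite to Socs3.

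Of 20 measured iron genes 3 passed 2-fold on the high side and 4 on the low side, with a median of -0.18. Tfrc, the transferrin receptor of dividing and iron-poor cells, had 6405 with canertinib, against 1425 on the diet alone and 648 on chow, 4.50-fold higher. That is its brightest probe set, and the mean over its probe sets was 0.97 in log2, under 2-fold. Tfr2, the hepatocyte receptor that senses transferrin iron, and Slc11a2, which carries iron out of endosomes, were 2.17-fold and 2.28-fold higher, while the probe sets of Slc11a2 reached down to 0.11 in log2. Smad7, a feedback gene of BMP signalling, the other pathway that drives hepcidin, had 373 with canertinib and 848 on the diet alone, and Id1 differed by -0.46. Ferroportin (Slc40a1) and ferritin heavy chain (Fth1) differed by -0.02 and 0.08. Scara5, a scavenger receptor that can take up ferritin, was 12.1-fold higher on its brightest probe set at 4336 with canertinib and 359 on the diet alone, while the other probe set gave -0.09.

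Many genes that build and coat lipid droplets were lower. Of 21 measured lipid droplet and PPARgamma target genes 9 were at least 2-fold lower (42.9%, against 3.51% of all genes) and 1 higher, with a median of -0.72. Plin2, the main coat protein of hepatocyte droplets, had a signal of 5289 with canertinib, against 33658 on the diet alone and 13542 on chow, 6.36-fold lower with canertinib. The droplet fusion genes Cidec and Cidea were below the floor with canertinib and on chow and above it on the diet alone, at 861 and 1531, so they were at least 3.89-fold and 6.91-fold lower with the drug.

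G0s2, an inhibitor of the triglyceride lipase ATGL, had 348 with canertinib, against 3300.2 on the diet alone and 1452 on chow. Fitm1, which aids droplet formation in the endoplasmic reticulum, had 397 with canertinib, against 3215 on the diet alone and 2187 on chow. The fatty acid transporter Cd36 had 1084 with canertinib, against 3279 on the diet alone and 726 on chow, and Mogat1, a monoacylglycerol acyltransferase, differed by -1.31. The exception was Fabp4, a fatty acid binding protein of adipocytes, macrophages and endothelium, at 2503 with canertinib, against 1055 on the diet alone and 342 on chow, though its probe sets reached down to 0.02 in log2. Pparg itself was below the floor with canertinib and had 362 on the diet alone. For the canertinib array, Plin2, G0s2 and Fitm1 lay below chow as well, while Cd36 lay between chow and the diet alone.

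De novo lipogenesis showed the same direction, with 9 of 25 measured genes at least 2-fold lower, 1 higher and a median of -0.79. Fasn, fatty acid synthase, had 3799 with canertinib, against 13090.3 on the diet alone and 4641 on chow. Me1, malic enzyme, which supplies NADPH for the pathway, had 2989 with canertinib, against 18982 on the diet alone and 12184 on chow, 6.35-fold lower. Elovl3, an elongase of very long chain fatty acids that is also male-biased, was 14.3-fold lower, at 488 with canertinib and 6974 on the diet alone. Srebf1, the master factor of the pathway, differed by -0.85, at 5928 with canertinib and 10707 on the diet alone. The gene on the high side was Ppargc1b, a coactivator, at 1317 with canertinib, against 233 on the diet alone and 1468 on chow. Triglyceride assembly and lipoprotein genes had a median of 0.12, with 3 of 28 at least 2-fold higher and 0 lower. The higher ones were Lpin1, a phosphatidate phosphatase, Apom, an apolipoprotein of HDL, and Lpl, lipoprotein lipase, at 3.87-fold, 3.23-fold and 3.19-fold.

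**Figure D3:**
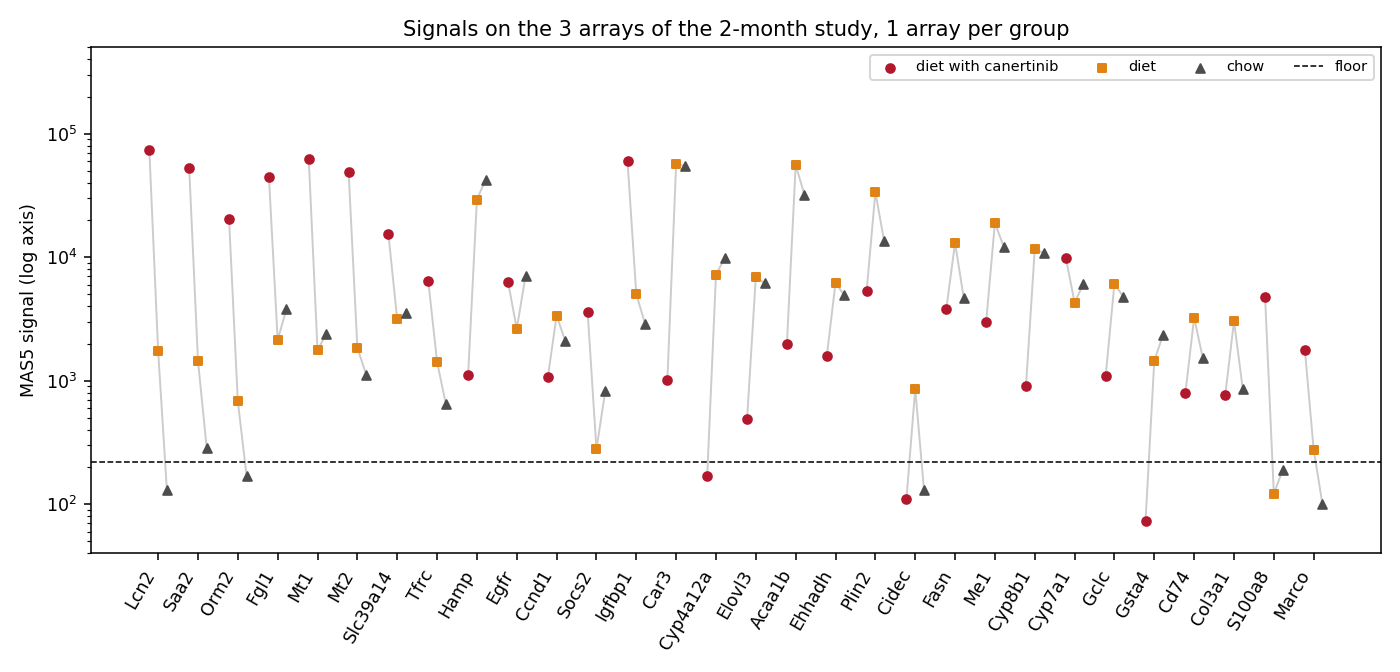
MAS5 signals (log axis) of 30 genes on the 3 arrays of the 2-month study, with 1 array per group and no error bars: diet with canertinib (circles), diet alone (squares) and chow (triangles). Lcn2, Saa2 and Orm2 step down across the 3 arrays, Car3, Hamp and Cyp8b1 are low with canertinib only, and Cidec and Col3a1 are high on the diet alone, while the dashed line marks the floor of 221.4.

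Some fatty acid oxidation genes were lower as well. Of 31 measured PPARalpha targets and peroxisomal genes 11 were at least 2-fold lower and 0 higher, with a median of -0.56. Acaa1b, a peroxisomal thiolase, had 1989.6 with canertinib, against 55893 on the diet alone and 32064 on chow, 28.1-fold lower with canertinib. Vnn1, a pantetheinase and a sensitive PPARalpha target in mouse liver, had 653 with canertinib, against 6872 on the diet alone and 2550.4 on chow. That is its brightest probe set, and the other differed by -0.98. Ehhadh, the bifunctional enzyme of the peroxisome, had 1574 with canertinib, against 6209.8 on the diet alone and 4906 on chow. Cyp4a12a, a fatty acid hydroxylase that is also male-biased, was below the floor with canertinib and at least 32.6-fold lower, with 7229.7 on the diet alone and 9852 on chow. All 4 were lower with canertinib than on chow, too.

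In mitochondrial fatty acid oxidation and ketogenesis 3 of 21 measured genes were at least 2-fold lower and 1 higher, with a median of -0.46. Bdh1, which makes the ketone body beta-hydroxybutyrate, had 1417 with canertinib, against 6964 on the diet alone and 4100.1 on chow. The auxiliary enzyme genes Decr1 and Eci1 were 2.59-fold and 2.50-fold lower, and the coactivator gene Ppargc1a was 2.38-fold higher. The respiratory chain shifted by less: 64 of 70 subunit genes were lower in some amount, 2 by at least 2-fold, with a median of -0.40. Cytosolic ribosomal protein genes leaned the other way, with all 42 measured genes higher in some amount, 2 by at least 2-fold, and a median of 0.55. Over all genes the median was -0.00. Between the 5-month and 2-month chow arrays the respiratory chain median was 0.10 and the ribosomal median -0.04. For the diet alone minus chow at 2 months, the respiratory chain median was 0.10 and the ribosomal median -0.23. The summed ribosomal signal was 566930 with canertinib, against 391012 on the diet alone and 439546 on chow.

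Fatty acid binding proteins diverged. Fabp1, the liver form, had 19408 with canertinib, against 61507 on the diet alone and 50885 on chow, 3.17-fold lower. Fabp2, the intestinal form, had 1201 with canertinib, against 9327 on the diet alone and 2102 on chow, 7.76-fold lower. Fabp5, the epidermal form, had 12096 with canertinib, against 1275 on the diet alone and 4967 on chow, 9.49-fold higher. The canertinib array was thus lowest of the 3 for Fabp1 and Fabp2 and highest for Fabp5.

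Cholesterol synthesis genes were partly higher. Of 22 measured 3 were at least 2-fold higher and 0 lower, with a median of 0.27. Idi1 (isopentenyl diphosphate isomerase), Sqle (squalene epoxidase) and Msmo1 (a sterol demethylase) were the 3. Idi1 had 2504 with canertinib, against 788 on the diet alone and 5508 on chow. Sqle had 3510.5 with canertinib, against 1290.0 on the diet alone and 2971 on chow. Msmo1 had 3062 with canertinib, against 1081 on the diet alone and 5245 on chow. Idi1 and Msmo1 with canertinib lay between the diet and chow values, and Sqle lay above both.

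Bile acid genes split. Cyp8b1, the sterol 12-alpha-hydroxylase that sets the share of cholic acid, had 905 with canertinib, against 11591 on the diet alone and 10886 on chow, 12.8-fold lower. Cyp7a1, the rate-limiting enzyme of bile acid synthesis, had 9864 with canertinib, against 4294 on the diet alone and 6082 on chow, 2.30-fold higher on its brightest probe set and 0.54 in log2 on the other, and Cyp2c70, which makes the muricholic acids of mice, was 2.86-fold higher. Abcc3, an efflux pump of the basolateral membrane, had 672 with canertinib and 3839 on the diet alone, 5.71-fold lower. Of 28 measured genes 4 passed 2-fold on the high side and 4 on the low side, with a median of -0.01.

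Male-biased liver genes had the lowest median of the 58 lists, -1.54, with 12 of 19 measured genes (63.2%) at least 2-fold lower and 0 higher. Beside Cyp4a12a and Elovl3, Ugt2b1, a glucuronosyltransferase, had 2964 with canertinib, against 17242 on the diet alone and 23495 on chow. Mup3, a major urinary protein gene, had 3959.9 with canertinib, against 21255 on the diet alone and 26344 on chow, and Mup10 was at least 12.2-fold lower, though probes of this family of near copies can share RNA. The steroid hydroxylase gene Cyp2d9 had 3043 with canertinib, against 12193 on the diet alone and 22514 on chow. Hsd3b5, a steroid reductase, was below the floor with canertinib and had 897 on the diet alone and 9458 on chow. For Mup3, Cyp2d9 and Hsd3b5 the diet value lay below chow and the canertinib value below the diet.

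Female-biased genes were mixed, with 6 of 17 measured genes at least 2-fold higher, 2 lower and a median of 0.58, which was 0.17 without genes at the floor on 1 array. Sult1e1, the oestrogen sulfotransferase, was at least 16.3-fold higher, at 3603 with canertinib and a level below the floor on the diet alone. Cyp17a1, a steroid hydroxylase and lyase, had 13553 with canertinib, against 1635 on the diet alone and 650.3 on chow. Fmo2, a flavin monooxygenase, was 5.12-fold higher. Abcd2 and Cyp2b10, also female-biased, were 2.01-fold and 2.23-fold lower.

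In the growth hormone and IGF list 4 of 18 genes passed 2-fold on the high side and 0 on the low side. Beside Socs2 and Egfr these were Cish, a STAT5 target, at 2257 with canertinib and 1079 on the diet alone, and Igfbp1. Igfbp1, a binding protein that insulin represses and that limits IGF-1, had 59873 with canertinib, against 5029 on the diet alone and 2891 on chow, 11.9-fold higher. Igf1 and Ghr, the growth hormone receptor, differed by 0.54 and -0.39 in log2. Irs2, an insulin receptor substrate that insulin represses, was 3.91-fold higher, at 1325 with canertinib and 339 on the diet alone, while the gluconeogenic genes Pck1 and G6pc differed by 0.94 and -0.62. Of 26 genes of insulin signalling and gluconeogenesis 3 were at least 2-fold higher and 1 lower.

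Among secreted liver hormones 6 of 27 were at least 2-fold higher and 4 lower. Lepr, the leptin receptor, which the liver sheds as a soluble form, had 1993 with canertinib, against 556 on the diet alone and 826 on chow. Agt, angiotensinogen, was 2.67-fold and Fetub, fetuin-B, 2.88-fold higher. Inhbe, an activin subunit gene of hepatocytes, had 771 with canertinib, against 2488 on the diet alone and 1252 on chow, and Fgf21 was below the floor with canertinib and had 444 on the diet alone. Amino acid genes had a median of 0.18, with 3 of 40 at least 2-fold higher and 0 lower. Outside that list, Slc3a1, a cystine and dibasic amino acid transporter subunit, was 8.77-fold higher, at 8939 with canertinib and 1019.8 on the diet alone. Phgdh, the first enzyme of serine synthesis and counted in the ER stress list, was 6.22-fold lower, at 656 with canertinib and 4081 on the diet alone, while its probe sets reached 0.04 in log2.

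The largest difference downward was in Car3, carbonic anhydrase III, an abundant cytosolic protein of mouse hepatocytes and adipocytes. Car3 had 1006 with canertinib, against 56907 on the diet alone and 54906 on chow, 56.5-fold lower with canertinib. Of its 4 probe sets, the 3 above the floor on at least 1 array gave log2 differences between -6.11 and -0.58. The other 6 measured carbonic anhydrases were all under 2-fold.

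Some detoxification genes of the conjugation phase were lower. Of 26 measured conjugating enzymes and carboxylesterases 9 were at least 2-fold lower and 3 higher, with a median of -0.76. The carboxylesterase Ces1f, which hydrolyses esters and lipids, had 388 with canertinib, against 8558 on the diet alone and 11151 on chow, and its relative Ces2e had 387 with canertinib and 3055 on the diet alone. Sult2a8, a bile acid sulfotransferase of mouse liver, had 1392 with canertinib, against 11615 on the diet alone and 19753 on chow. Ephx1, microsomal epoxide hydrolase, was 3.70-fold lower. By contrast Ces1c, a carboxylesterase secreted into mouse plasma, was 2.57-fold higher and Sult1a1 2.52-fold higher.

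Several glutathione and NRF2 genes were lower as well, 9 of 33 by at least 2-fold against 1 higher, with a median of -0.64. Gclc, which catalyses the rate-limiting step of glutathione synthesis, had 1100.5 with canertinib, against 6124 on the diet alone and 4779 on chow, 5.57-fold lower. The glutathione transferases Gsta4, at least 6.56-fold lower, Gsta2, 4.85-fold lower, and Gstm3, 3.28-fold lower, shared the direction. Nqo1, a canonical NRF2 target, differed by -0.83. Cytochrome P450 genes of families 1 to 3 and their regulators had 3 of 33 at least 2-fold higher, 4 lower and a median of -0.29. Cyp3a11, a main drug-metabolising enzyme of mouse liver, had 21372 with canertinib, against 44529 on the diet alone and 50153 on chow, while Cyp3a13 had 13514 with canertinib, against 4138 on the diet alone and 4747 on chow. Nat8 and Nat8f5, acetyltransferase genes that may share probes, were at least 13.6-fold and 5.59-fold lower.

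Some antigen presentation genes were lower. Of 13 MHC class II and presentation genes 3 were at least 2-fold lower and 0 higher. Cd74, the invariant chain, had 792 with canertinib, against 3243 on the diet alone and 1516 on chow. H2-Aa, a class II chain gene, had 879 with canertinib, against 3935 on the diet alone and 1752 on chow. H2-Ab1 had 499 with canertinib, against 2427 on the diet alone and 1505 on chow. The canertinib value of each lay below both other arrays. Of 27 interferon-stimulated genes 6 were at least 2-fold lower and 0 higher, with a median of -0.37. Among them Psmb9, an immunoproteasome subunit, had 453 with canertinib and 1209 on the diet alone, and the chemokine gene Cxcl9 was at least 3.49-fold lower.

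Resident Kupffer cell markers were split among themselves, with 3 of 14 at least 2-fold higher and 0 lower. Marco, a scavenger receptor, had 1759 with canertinib, against 276 on the diet alone and 100.1 on chow, and the haemoglobin scavenger receptor Cd163 was at least 3.46-fold higher. Clec4f, a specific marker of mouse Kupffer cells, differed by 0.01 and Adgre1 (F4/80) by -0.58. The summed signal of the list was 50024 with canertinib, 40066 on the diet alone and 21662 on chow. Of 14 markers of recruited and lipid-associated macrophages 4 were at least 2-fold higher, Fabp5, Lpl, Cd9 and Chil3, while the defining genes Trem2 and Gpnmb were at the floor on both arrays. Of 11 lymphocyte markers 3 were at least 2-fold higher and 1 lower.

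Matrix genes were not uniform. Of 37 measured matrix genes 4 were at least 2-fold lower and 2 higher, with a median of -0.29. Col3a1, a fibrillar collagen of scar tissue, had 761 with canertinib, against 3035 on the diet alone and 863 on chow. Col1a1, another, had 263 with canertinib, against 767 on the diet alone and 45.3 on chow, and its other probe set differed by -0.47 in log2. The fibrillar collagen genes Col1a2, Col5a1 and Col5a2 differed by -0.36, -0.29 and -0.53, all under 2-fold. Fibronectin (Fn1), which hepatocytes secrete, was 2.23-fold higher. Lgals1, a galectin, S100a10 and its partner Anxa2 were 7.52-fold, 4.98-fold and 3.53-fold lower. Tubb2a, a beta-tubulin isotype, had 624 with canertinib, against 7659 on the diet alone and 727 on chow, 12.3-fold lower, and was high on the diet array and low on the canertinib and chow arrays. Of 12 stellate cell markers 1 was at least 2-fold higher and 0 lower, with a median of -0.15. Their summed signal was 30406 with canertinib and 27010.4 on the diet alone.

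**Figure D4:**
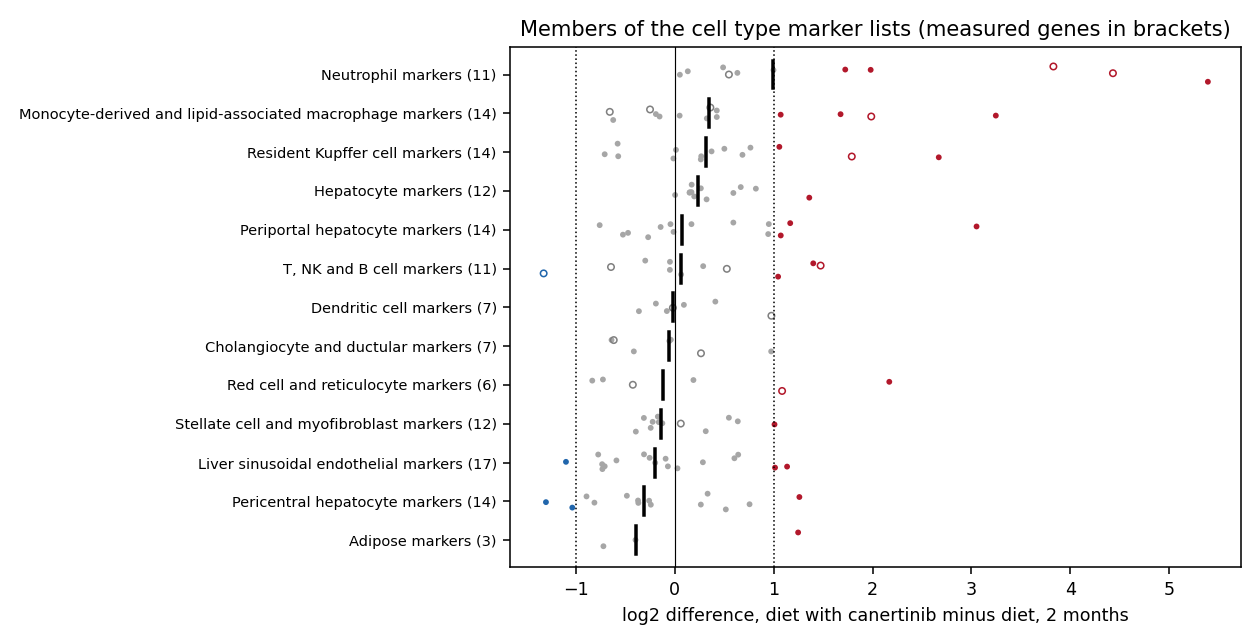
Each point is a measured member of 1 of 13 cell type marker lists, placed by its log2 difference, diet with canertinib minus diet alone; red and blue points are at least 2-fold different, open points are bounds and bars are medians. Neutrophil markers have the highest median, and the hepatocyte list sits at 0.23.

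In the 5-month study the same diet was given, canertinib (80 mg/kg) went in by injection, 5 days a week for the last 5 weeks, and the diet group received vehicle. No array is shared with the 2-month comparison, route and duration differ together, and the difference between the studies was not tested. Of 12854 genes measured at 5 months, 2.39% passed 2-fold on the high side and 2.97% on the low side, together 5.36%. All 21 named genes that were higher at 2 months were at least 2-fold higher at 5 months as well. Lcn2 differed by 5.39 at 2 months and 3.93 at 5 months, Mt2 by 4.74 and 4.15, and S100a8 by at least 4.43 and by 4.37.

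Of the 21 named genes that were lower at 2 months, 20 were below 0 at 5 months and 15 were at least 2-fold lower. Cidea differed by -2.79 or lower at 2 months and -2.86 or lower at 5 months, both bounds, and Fabp2 by -2.96 and -2.42. Hamp differed by -4.72 at 2 months and 0.01 at 5 months, Sult2a8 by -3.06 and -0.15, and Car3 by -5.82 and -1.32. At 5 months Hamp had 9956 with canertinib, 9881 on the diet alone and 39497 on chow. Sult2a8 had 7077, 7865 and 21742 on the same arrays. For Hamp and Sult2a8 the 5-month diet and canertinib values thus both lay below chow. Male-biased genes had a median of -1.54 at 2 months and -0.07 at 5 months, where 3 of 20 were at least 2-fold higher and 2 lower. Members then lay on both sides of 0, with Cyp4a12a at -2.16 and Slco1a1 at 1.13. Several members were below chow on the 5-month diet array itself. Cyp2d9, Elovl3, Mup10 and Cyp4a12a had 8888, 2252, 1048 and 3270 there, against 27499, 7356, 7492 and 7565 on 5-month chow. The whole list was not set against chow at 5 months.

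**Figure D5:**
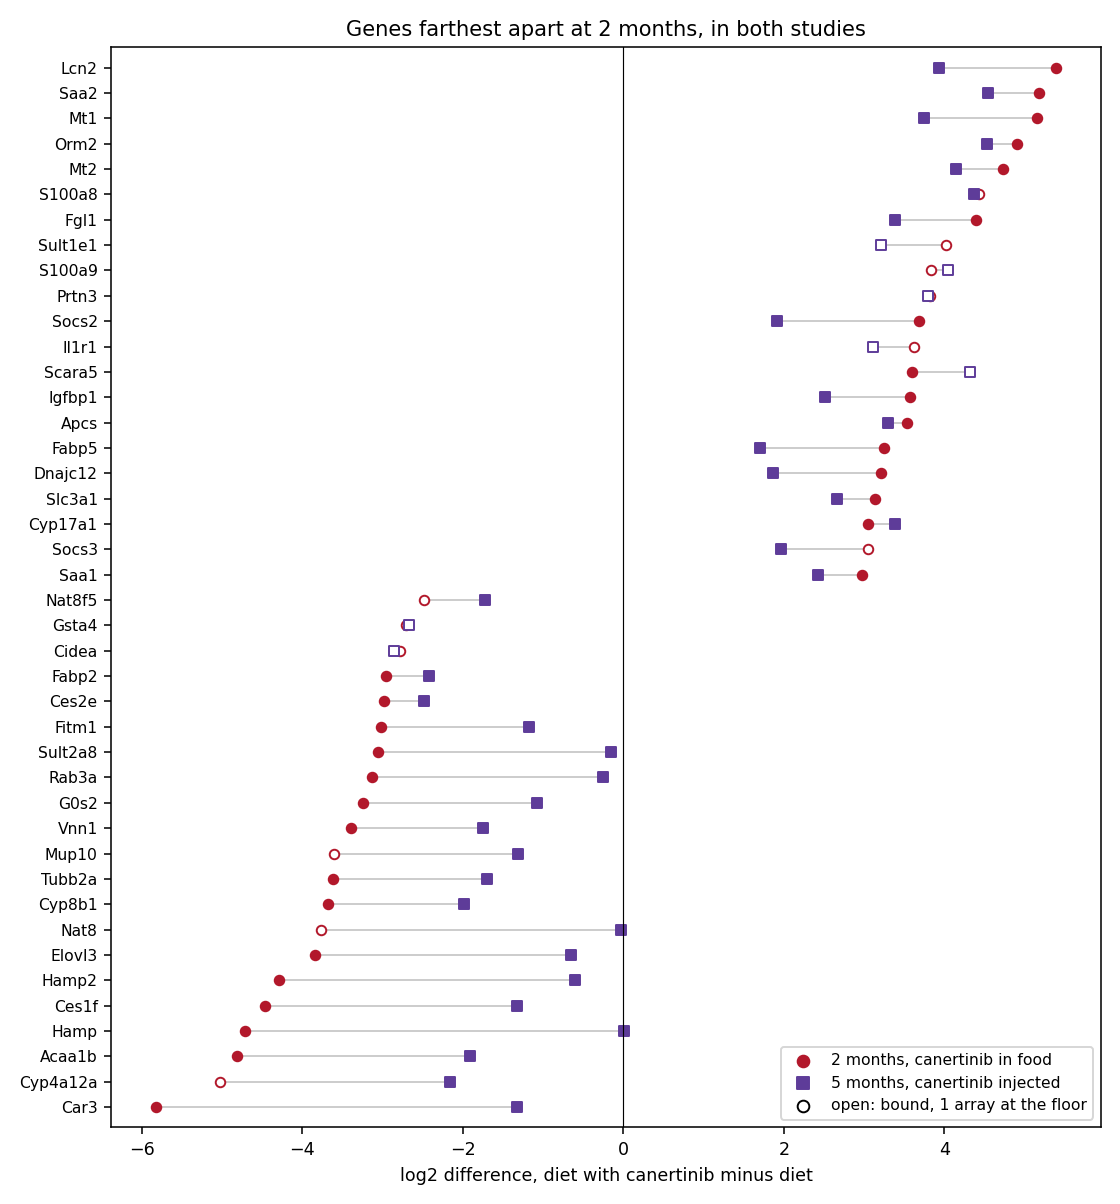
Log2 differences, diet with canertinib minus diet alone, of the 42 named genes at 2 months with the drug in food (circles) and at 5 months with the drug injected (squares), with open symbols for bounds. All 21 genes on the high side are above 0 in both studies, while Hamp, Nat8, Sult2a8 and Rab3a lie near 0 at 5 months, at 0.01, -0.03, -0.15 and -0.25. For Hamp, Nat8 and Sult2a8 the 5-month diet signal was itself below chow.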

How the data were processed

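Liver RNA of 6 groups was measured on 1 Affymetrix mouse expression array each. Per the submitters' processing notes the deposited intensity values are MAS5 signals, of a version that the sources used here do not state, and from the values the authors had scaled each array to a mean of 500, taken after trimming 2% of probe sets at each end. Of 45101 probe sets, 34958 carried 1 gene symbol, 932 several and 9211 none, and 34754 of those with 1 symbol had a gene ID in the RefSeq table, which gave the symbol used. Each gene took its probe set with the highest mean signal, signals were floored at 221.4, and log2 differences were taken with no test. The fold threshold was 2. Arrays have no read depth, and their number limits the precision. Named were the 15 largest differences each way above the floor on both arrays, the 6 largest bounds each way, and members of the 58 gene lists. Members and lists were chosen with earlier results of these data known, and of 1383 listed symbols 1220 were analysed here. Other scalings, floors, probe set rules and thresholds were tried. On simulated arrays the procedure was tested before use. Promoters came from RefSeq. Analyses used Python 3.11.15, NumPy 2.4.6, SciPy 1.17.1, pandas 2.3.3, statsmodels 0.14.6 and matplotlib 3.10.9.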

Additional observations from a re-analysis of the deposited data

Results flagged for a closer look

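A few listed genes were at least 2-fold different with canertinib in opposite directions in the 2 studies, and the difference between the studies was not tested. Slco1a1, a male-biased organic anion transporter, had a log2 difference of -2.23 at 2 months, with signals of 1023 with canertinib and 4797 on the diet alone. At 5 months its difference was 1.13, with 3637 with canertinib and 1667 on the diet alone. Slco1a4, a related transporter, differed by 1.74 at 2 months, with 2897 with canertinib and 866 on the diet alone. At 5 months it differed by -1.40, with 575 with canertinib and 1513 on the diet alone. Abcd2, a peroxisomal transporter of very long chain fatty acids, differed by -1.01 at 2 months and 1.31 at 5 months. Hsd3b5, a male-biased steroid reductase, differed by -2.02 or lower at 2 months, where it was below the floor with canertinib, and by at least 1.73 at 5 months, where it was below the floor on the diet alone.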

How the results depend on the processing

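No paired analysis was possible because each group holds 1 array. The count of genes at least 2-fold higher was 749 with a floor at the 40th percentile, 331 at the 60th, 2007 with no floor and 310 with the mean over a gene's probe sets, and 1522 at 1.5-fold and 128 at 3-fold. The count lower was 1550 with no floor, 285 with the probe set mean, 1484 at 1.5-fold and 116 at 3-fold. Calls on the high side made up 52.2% as reported and 48.7% to 56.4% across settings. Quantile normalization gave 451 higher and 474 lower, and the 60th percentile floor 331 and 348. List medians moved by more than 0.33, the robust SD of the chow pair, in these cases. The mean in place of the median gave 2.44 for the serum amyloid list, 0.86 for metallothioneins and zinc, -1.01 for PPARalpha targets, -0.90 for carbonic anhydrases, 1.84 for neutrophil markers, 0.24 for red cell markers and, with the sign turned, 0.0415 for 3 adipose markers. Genes above the floor on both arrays gave 0.30 for interleukin signalling and 0.17 for female-biased genes, which had 0.99 with the 40th percentile floor. Without _s_at, _x_at and _a_at probe sets the medians were -1.31 for lipid droplets, -0.16 for tubulins and 0.63 for neutrophils, and the probe set mean gave -0.38 for tubulins. Without genes that differed between the chow arrays, chosen after seeing the data, the serum amyloid list had 1.01. In the other 681 recomputed medians the shift was smaller. Of single-gene values 506 stayed within that spread, 61 moved further and 0 turned sign. Car3 was -3.13, Tubb2a -1.81, Socs2 1.21, Il1r1 1.81, Tfrc 0.97 and Egfr 0.80 with the probe set mean. That mean takes probe sets at the floor on both arrays as 0, and Tubb2a and Il1r1 have 1 probe set above the floor. The cause of the other shifts was not tested. For 361 genes past 2-fold with several probe sets above the floor, all of them had the same sign in 70.1%. Dim genes are limited by the floor.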

Other observations

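Further gene groups are read against all genes, of which 3.83% passed 2-fold on the high side with canertinib and 3.51% on the low side. Of 20 clock genes 1 passed 2-fold on the high side and 2 on the low side. Per1, a repressor of the clock, had 1414 with canertinib, against 651 on the diet alone and 726 on chow. Dbp, an output factor, had 926 with canertinib, against 2909 on the diet alone and 5117 on chow on its brightest probe set, and its other probe set differed by -0.02 in log2. Nr1d1 (REV-ERBalpha) had 396 with canertinib, against 1184 on the diet alone and 1508 on chow. The labels give no hour of collection. Of 21 heat shock genes 1 passed 2-fold on the high side and 2 on the low side. The higher one was Fkbp5, a cochaperone that glucocorticoids induce, at 7474 with canertinib, against 1316 on the diet alone and 1781 on chow. The lower ones were Hspb1 at 1676 with canertinib and 5596 on the diet alone and Hspa1b at 577 with canertinib and 2065 on the diet alone.

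Of 21 glycolysis genes 3 passed 2-fold on the high side and 1 on the low side. The higher ones included Pkm, the pyruvate kinase form of most tissues other than hepatocytes, at 1306 with canertinib, against 571 on the diet alone and 519 on chow, and Slc2a1, the glucose transporter GLUT1, at 1264 with canertinib, against 589 on the diet alone and 604 on chow. Lysosomal genes had 3 of 29 at least 2-fold higher, Grn, Ctsl and Ctsc, and 0 lower. Of 35 proteasome genes the immunoproteasome subunit Psmb9 was the 1 past 2-fold. Of 33 ER stress genes 1 was higher and 3 lower, and the chaperone gene Hspa5 differed by -0.13. Of 17 sinusoidal endothelial markers 2 passed 2-fold on the high side and 1 on the low side, and 11 were lower in some amount, with a median of -0.20. On their brightest probe sets Lyve1 and Stab2 were 2.20-fold and 2.02-fold higher and Fcgr2b 2.15-fold lower. The other probe sets reached 0.26 in log2 for Lyve1 and -0.07 for Fcgr2b.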
